A study of Mus musculus with 24 samples.

Results

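The GIMAP genes (GTPases of immunity-associated proteins) encode a family of lymphocyte GTPases that lie side by side on mouse chromosome 6. The 8 genes Gimap1, Gimap3, Gimap4, Gimap5, Gimap6, Gimap7, Gimap8 and Gimap9, of 55414 genes in the deposited table, were followed by gene symbol through splenic Tconv CD4+ cells at rest and after activation. On activation Gimap7 rose in both haplotypes, Gimap8 and Gimap6 fell in both, and the other 5 genes did not pass the test in either. Between the haplotypes no GIMAP gene passed the test over all libraries, and Gimap6 had the widest difference in response. The 8 genes were chosen by symbol with their measured counts in the 4 groups known, and the record of the choice does not name a comparison. Their differences on activation are therefore a description: calls against the threshold are counted, no p-value is printed, and nothing is supported by them or by the choice of these genes. The comparisons of the haplotypes use the same counts. Adjusted p-values are printed there as a description of these libraries, and they support nothing either.

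The mice were conplastic, with a C57BL/6J nucleus and the mtDNA of either C57BL/6J (mtDNA B6, labelled WT) or NZB (mtDNA NZB). Tconv CD4+ cells (CD4+ CD25-, labelled TE) were taken from the spleen by magnetic columns. They were either left at rest (RES) or activated for 72 h with CD3/CD28 beads plus IL-2 (ACT). The methods do not say whether resting cells were cultured, so the beads, IL-2 and time in culture cannot be told apart. Per the methods most mice were males of 2 to 3 months. There were 24 libraries, 6 for each haplotype and state, and the labels do not say whether these came from separate mice, so p-values measure the spread between these libraries only.

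GIMAP proteins sit on internal membranes of T and B cells and govern how long those cells live. Mature T and B cells are lost without Gimap1, and T cells are lost without Gimap5, which acts at the lysosome. Gimap3 is the nearest relative of Gimap5 and is known as a nuclear modifier of the segregation of NZB and other mtDNA in blood-forming tissue of heteroplasmic mice. Gimap6 takes part in autophagy through the Gabarap family, Gimap4 affects the timing of T cell death, and Gimap8 is the longest member, with several GTPase domains. Less is known of Gimap7 and Gimap9.

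In GRCm39 the cluster covers chr6:48624143-48747826, which is 123.7 kb, with 6 genes on the plus strand and 2, Gimap6 and Gimap3, on the minus strand. The order along the chromosome is Gimap8, Gimap9, Gimap4, Gimap6, Gimap7, Gimap1, Gimap5 and Gimap3. No exon of another gene lies over the last 1000 transcript bases of any of the 8, which is the stretch that 3′ libraries read. The antisense gene Gimap1os overlaps the body of Gimap1 and held at most 162 UMI counts in a library. The readthrough gene Gm28053, which joins Gimap7 to Gimap5, held at most 2.

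Gimap3 and Gimap5 are the members that reads could confuse, so their sequences are shown first. Their coding sequences matched at 90.3% of 898 aligned bases, while Gimap3 and Gimap8 matched at 73.5% and Gimap7 and Gimap8 at 73.9%. Their last 1000 transcript bases matched at only 65.1% of 774 aligned bases and shared no run as long as a 75-base read. Within these windows a single shared run of 48 coding bases was found. In Gimap5 it starts at the first base of the 1000-base window, so whether the match extends upstream was not examined. Its first 30 bases lie at chr6:48742198-48742227 in Gimap3 (minus strand) and chr6:48730145-48730174 in Gimap5 (plus strand).
Gimap3 and Gimap5, shared: ggaagcctataggtgctacctggccaaggt
The 30 bases that follow the run, at chr6:48742150-48742179 and chr6:48730193-48730222, differ at 2 positions, given in capitals.
Gimap3, diverging: AcagaggTgggagctggaggagcaggaggg
Gimap5, diverging: GcagaggCgggagctggaggagcaggaggg
A read that covers the run and its downstream edge can therefore be assigned, and a fragment that lies inside the run cannot.

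Libraries held from 51409 to 6449395 UMI counts, where a UMI is a tag that marks 1 captured molecule. The smallest, mtDNA NZB resting replicate 2, held 132 UMIs of the whole family, and 1 count there is worth 16.9 CPM (counts per 1000000 counts of the library, scaled by TMM). T cell identity genes (the Cd3 chains, the receptor constant genes and Cd4) summed to medians of 6490 to 7440 CPM in the 4 groups, and none of the 8 was at 0 in all libraries. Markers of other cells were high at rest: neutrophil genes had group medians of 1840 (mtDNA B6) and 555 CPM (mtDNA NZB), and 2.66 and 35.7 after activation. Erythroid genes moved the same way, from 1340 and 236 to 10.2 and 14.7, as did myeloid genes, from 1470 and 829 to 25.8 and 48.6. Other sums were higher after activation. The CD8 genes had medians of 68.6 and 51.8 CPM at rest and 277 and 164 after activation, and platelet genes 14.6 and 16.4 at rest and 140 and 97.8 after it. Group medians were at most 10.7 CPM for NK cell and 22.7 for Treg genes. Resting mtDNA NZB replicate 6 stood apart, with a neutrophil sum of 17400 CPM and a T cell identity sum of 4330. Results were therefore also taken over 21 libraries, without replicates 2 and 6 of resting mtDNA NZB and replicate 6 of activated mtDNA NZB, the deepest library. For Gimap6 all 3 removals widen the difference between the haplotypes in response, as the resting pair held the lowest Gimap6 of its group (1100 and 1360 CPM) and the activated library the highest (1020). In such bulk samples fewer cells of a type and less RNA per cell cannot be told apart.

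The family summed to 2490 ± 295 CPM in resting and 2290 ± 267 CPM in activated mtDNA B6 cells (SD, n = 6 in each group). In mtDNA NZB cells the sum was 2720 ± 422 at rest and 2020 ± 547 after activation. Without the 3 libraries it was 2980 ± 145 (n = 4) and 1880 ± 491 (n = 5). Gimap6 made up 48.1% and 55.9% of the family's molecules at rest in mtDNA B6 and mtDNA NZB cells, and 37.8% and 34.5% after activation. Gimap7 went the other way, from 6.28% and 4.87% to 15.7% and 15.5%.

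**Figure D1:**
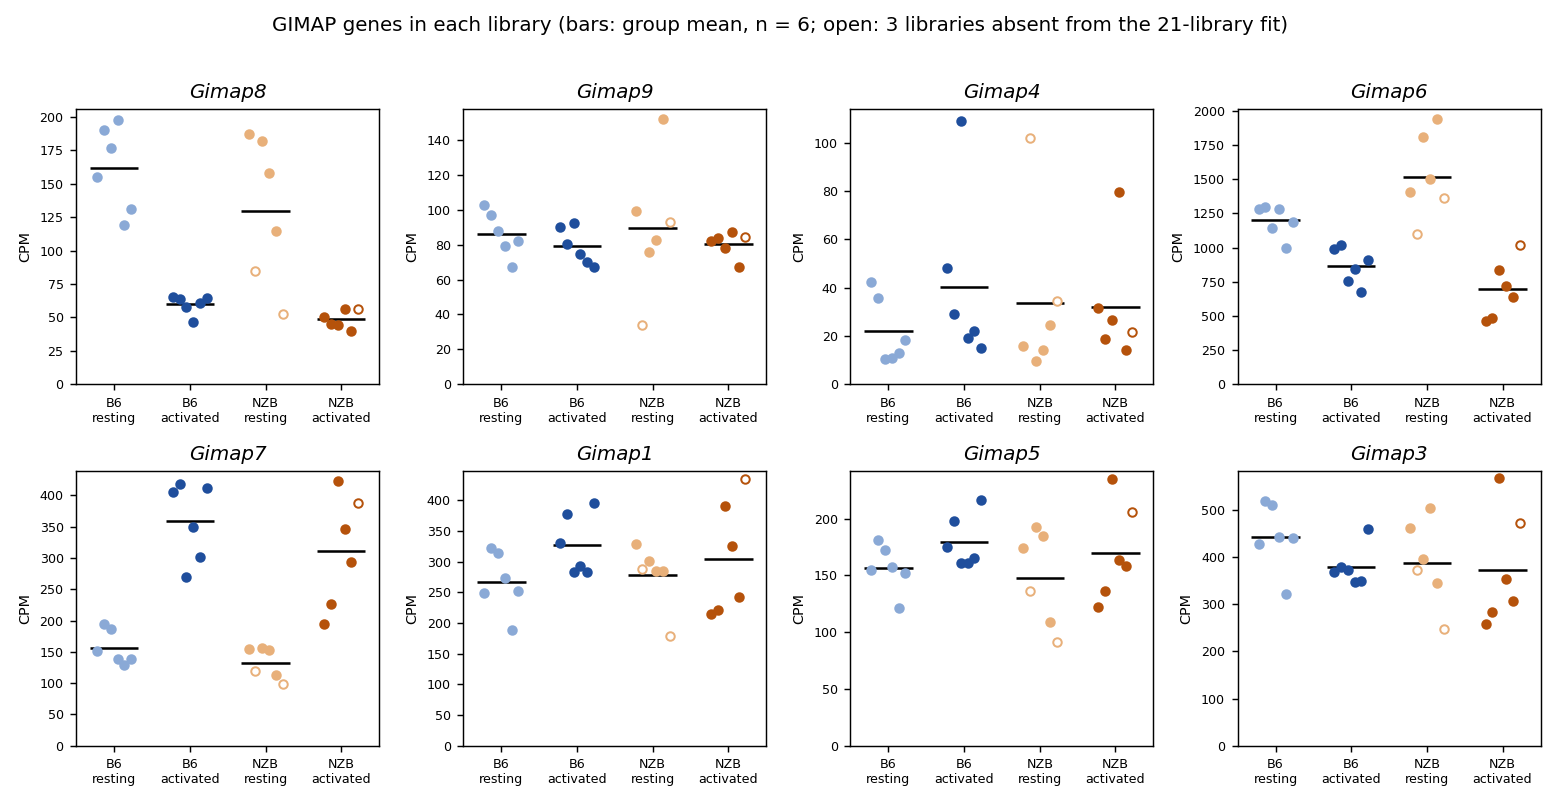
CPM (linear axis from 0) of the 8 GIMAP genes in each of 24 libraries, by haplotype and state; a bar marks the mean of 6 libraries and open circles the 3 libraries left out of the 21-library fit. Gimap7 stands at 270 CPM or more in every activated mtDNA B6 library and at 195 or less at rest, Gimap8 does the reverse, and Gimap4 has 1 or 2 high libraries in each group.

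Each UMI counts 1 molecule whatever the transcript length, so levels can be set side by side between members, as far as their 3′ ends are captured alike. At rest the order of mean levels in mtDNA B6 cells was Gimap6, Gimap3, Gimap1, then Gimap8, Gimap7 and Gimap5, then Gimap9 and Gimap4. Gimap6 exceeded Gimap3, and Gimap3 exceeded Gimap1, in 6 of 6 libraries of each resting group. Gimap8 (162 CPM), Gimap7 (156) and Gimap5 (156) did not differ beyond their spread, as Gimap8 exceeded Gimap7 in 2 of 6 libraries. After activation Gimap7 stood level with Gimap3 in mtDNA B6 cells, where Gimap3 was the higher of the pair in 3 of 6 libraries, and Gimap8 had dropped below Gimap9 in 6 of 6.

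Gimap7 was the only member called higher on activation, where a call is an adjusted p of at most 0.05 in edgeR's quasi-likelihood fit of all genes. In resting mtDNA B6 cells it ran from 129 to 195 CPM with a median of 145, and after activation from 270 to 418 with a median of 377. In mtDNA NZB cells the resting range was 98.8 to 156 (median 136) and the activated range 194 to 423 (median 320). The ranges of the states did not overlap in either haplotype, as was the case for 15.4% (mtDNA B6) and 11.9% (mtDNA NZB) of all genes in this direction. The increase was 2.30-fold in mtDNA B6 (log2 1.20, SE 0.17) and 2.33-fold in mtDNA NZB cells (log2 1.22, SE 0.18). Of all 10566 genes tested, 22.4% and 25.2% were called higher in the same comparisons.

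Gimap8 showed the opposite pattern. Resting mtDNA B6 cells held 119 to 198 CPM, with a median of 166, and activated ones 46.8 to 64.9 CPM, with a median of 62.4. The groups did not overlap, which 16.4% of all genes showed in this direction. In mtDNA NZB cells it ran from 52.6 to 187 (median 136) at rest and from 39.6 to 56.4 (median 47.5) after activation. The only resting library within the activated range was replicate 6, at 52.6 CPM, the one with the high neutrophil sum. The decrease was 2.70-fold in mtDNA B6 (log2 -1.44, SE 0.20) and 2.81-fold in mtDNA NZB cells (log2 -1.49, SE 0.21), and the latter was 3.43-fold (log2 -1.78, SE 0.16) over 21 libraries.

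Gimap6, the autophagy-linked member and the most abundant one, was the other gene called lower. Resting mtDNA B6 libraries held 1000 to 1300 CPM with a median of 1230, activated ones 676 to 1020 CPM with a median of 875, and the highest activated library passed the lowest resting one. In mtDNA NZB cells it ran from 1100 to 1940 (median 1460) at rest and from 462 to 1020 (median 680) after activation, with no overlap, as for 6.95% of all genes in this direction. The decrease was 1.39-fold in mtDNA B6 (log2 -0.47, SE 0.16) and 2.20-fold in mtDNA NZB cells (log2 -1.14, SE 0.17). Of all genes, 24.5% in mtDNA B6 and 28.4% in mtDNA NZB cells were called lower. The mtDNA B6 call was lost without activated replicate 5 (log2 -0.41).

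The pair Gimap3 and Gimap5 and the neighbour Gimap1 were not called in either haplotype. Gimap3, the mtDNA segregation modifier, averaged 443 ± 71.1 CPM at rest and 379 ± 41.1 after activation in mtDNA B6 cells, and 388 ± 90.5 and 373 ± 121 in mtDNA NZB cells. Its log2 changes were -0.23 (95% interval -0.58 to 0.13) and -0.05 (-0.42 to 0.31). Gimap5 averaged 156 ± 20.7 and 179 ± 22.7 CPM in mtDNA B6 cells and 148 ± 42.2 and 170 ± 42.8 in mtDNA NZB cells, with log2 changes of 0.20 and 0.19. Gimap1 averaged 266 ± 48.9 and 327 ± 49.4 in mtDNA B6 cells and 277 ± 51.7 and 305 ± 93.8 in mtDNA NZB cells, with log2 changes of 0.30 and 0.15. Gimap9 stayed between 79.3 and 89.5 CPM on average in the 4 groups, with log2 changes of -0.12 (-0.42 to 0.19) and -0.28 (-0.60 to 0.04).

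Gimap4 was the lowest and by far the least even member. Its median was 15.8 CPM at rest and 25.5 after activation in mtDNA B6 cells, and 20.2 and 24 in mtDNA NZB cells, while single libraries reached 42.2, 109, 102 and 79.7 CPM. Its mean coefficient of variation within groups was 69.2% over 23 libraries (without the smallest), which was higher than in 98.8% of 3778 genes of like level. The other 7 members had 16.6% to 21.5%. Its log2 changes on activation, 0.88 (SE 0.48) and 0.60 (SE 0.54), were not called, the mtDNA B6 value was 0.29 without activated replicate 3, and the mtDNA NZB value was 0.06 without activated replicate 4.

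Taken over the 8 members, the median log2 change on activation was 0.04 in mtDNA B6 and 0.05 in mtDNA NZB cells, against -0.03 and -0.06 over all genes tested. In each haplotype 1 member was called higher and 2 lower, with 5 uncalled. Gimap7, Gimap8 and Gimap6 were called in the same direction in both haplotypes, which share 1 fit and its estimate of the spread. Of all genes tested, 46.9% (mtDNA B6) and 53.5% (mtDNA NZB) were called in either direction. The share of all genes called alike in both haplotypes was not counted.

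**Figure D2:**
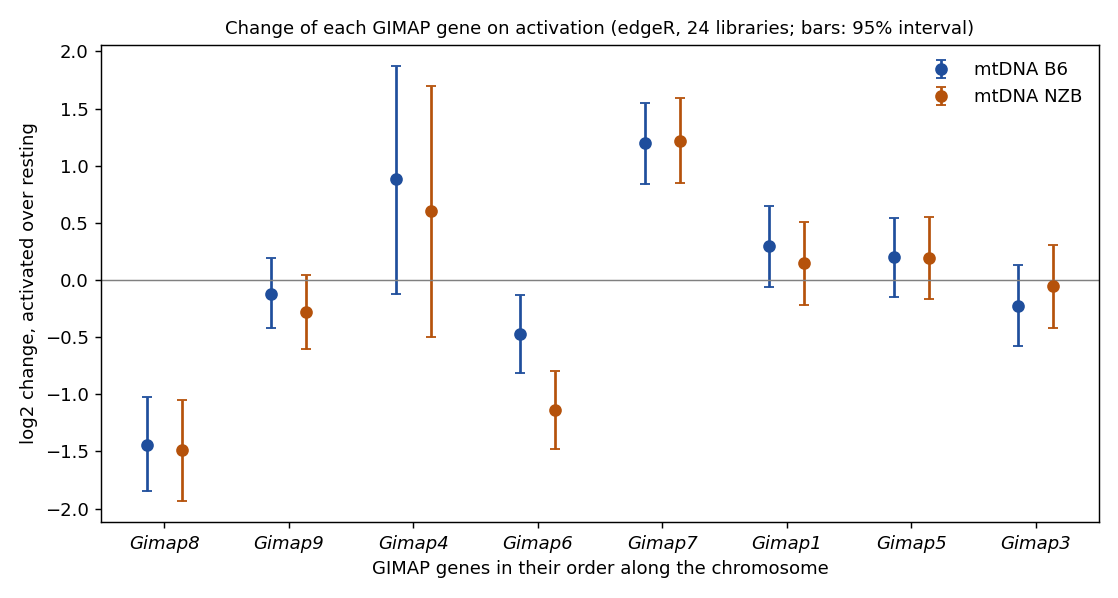
Change of each GIMAP gene on activation (log2, edgeR over 24 libraries) in mtDNA B6 (blue) and mtDNA NZB cells (orange); bars are 95% intervals and genes stand in chromosomal order. Gimap8 (-1.44 and -1.49) and Gimap7 (1.20 and 1.22) change alike in both haplotypes, and Gimap6 (-0.47 and -1.14) differs most between them.

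The haplotypes were then compared within each state, to ask whether mtDNA NZB alters the family. At rest 0 of 8 members were called by edgeR, where 2.76% of all genes were called, and 1 of 8, Gimap6, had an unadjusted p under 0.05, as did 20.8% of all genes. After activation 0 of 8 members and 0 of 10566 genes were called, and no member but 3.09% of genes had an unadjusted p under 0.05. DESeq2 called 0 of 8 in each. Gimap3, whose known link to NZB mtDNA makes it the member of most interest here, differed by log2 -0.19 at rest (95% interval -0.55 to 0.18, adjusted p = 0.597, edgeR) and by -0.02 after activation (-0.38 to 0.34, adjusted p = 1). For Gimap5 the intervals were -0.41 to 0.30 at rest and -0.41 to 0.28 after activation. These intervals do not show that the haplotypes are alike.

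Gimap6 was higher in resting mtDNA NZB than in resting mtDNA B6 cells, by log2 0.36 (SE 0.16, 95% interval 0.02 to 0.69), without passing the correction (adjusted p = 0.216, edgeR). The 2 lowest of the 6 resting mtDNA NZB libraries, at 1100 and 1360 CPM, were replicates 2 and 6. The remaining 4 held 1410, 1500, 1810 and 1940 CPM, all above the highest resting mtDNA B6 library (1300). Over 21 libraries the difference was log2 0.48 (SE 0.15, adjusted p = 0.059, edgeR), still uncalled, and 2.49% of genes were higher without overlap in that comparison. After activation Gimap6 was lower in mtDNA NZB cells by log2 -0.31 (SE 0.16, adjusted p = 1, edgeR) and the groups overlapped.

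The difference of the responses, the activation change in mtDNA NZB cells minus that in mtDNA B6 cells, was log2 -0.67 for Gimap6 (SE 0.23, 95% interval -1.15 to -0.19, adjusted p = 0.23, edgeR). It passed the unadjusted test, as did 14.3% of all genes, and 0 of 10566 genes passed the correction, against 1 gene of 25030, which is no GIMAP gene, by DESeq2. Over 21 libraries the difference was log2 -0.93 (SE 0.21, 95% interval -1.36 to -0.50) and was called (adjusted p = 0.0442, edgeR), as were 1.04% of all genes, 0.166% in this direction. Of the 21 fits that each left out 1 more library, 7 kept the call, with differences from -1.04 to -0.84 and adjusted p from 0.0194 to 0.089 (edgeR). The sign was negative in all of them. The call was also lost over the same 21 libraries with the library set (by reads per UMI) as a term (log2 -0.73, adjusted p = 0.166, edgeR) or with the number in the sample description as a block (-0.77, adjusted p = 0.15, edgeR). It thus turned on the libraries and the terms used. In the other 7 members the difference ran from -0.28 (Gimap4) to 0.17 (Gimap3), with adjusted p of 0.786 or more.

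**Figure D3:**
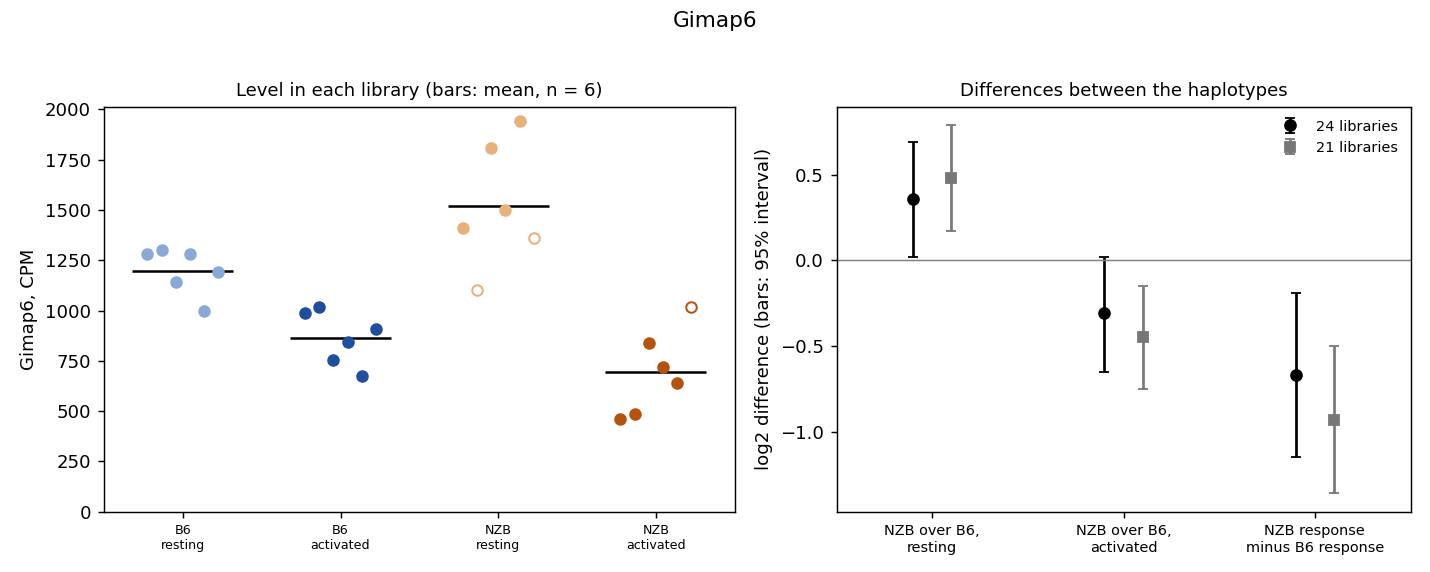
Left, Gimap6 in CPM (linear axis from 0) in each library, with the mean of 6 as a bar and open circles for the 3 libraries left out of the 21-library fit. Right, log2 differences between the haplotypes with 95% intervals, over 24 libraries (circles) and 21 libraries (squares): 0.36 and 0.48 at rest, -0.31 and -0.45 after activation, and -0.67 and -0.93 for the difference of the responses.

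In activated cells of both haplotypes the sums of B cell and CD8 markers moved with Gimap6, while some other marker sums did not. The 3 activated mtDNA NZB libraries with the lowest Gimap6, replicates 1, 2 and 5 (462, 487 and 640 CPM), also had the lowest sums of the B cell markers Cd79a, Cd79b, Ms4a1 and Cd22, at 59, 64.9 and 267 CPM. The other 3 held 642, 846 and 989 CPM, and activated mtDNA B6 libraries 415 to 800. The family sum was lowest in the same 3 libraries too, at 1410, 1500 and 1760 CPM, against 2130 to 2680 in the other 3. The CD8 genes were lowest in the same 3 libraries, at 82.0, 85.5 and 124 CPM, against 161 to 405 in activated mtDNA B6 cells. Platelet sums were lowest there too (44.6, 50.9 and 17.3). Treg sums were highest there, at 38.8, 46 and 22.6 CPM, and neutrophil sums (147, 50.6 and 4.03) did not follow. In activated mtDNA B6 cells replicates 2, 1 and 6 were highest in Gimap6 (1020, 988 and 906 CPM). They were also highest in B cell (800, 687 and 509) and CD8 sums (393, 369 and 405). At rest B cell sums ran from 195 to 903 CPM in mtDNA B6 and from 183 to 1080 in mtDNA NZB cells. Resting mtDNA NZB libraries did not follow the order seen after activation. Replicate 5, the highest in Gimap6 (1940 CPM), had a B cell sum of 189 and a CD8 sum of 38.5 CPM. Replicate 1 (1410 CPM of Gimap6) had 1080 and 142, and replicate 6 (1360) had 183 and 38.1. GIMAP genes are also expressed by B cells and CD8 T cells, and the part of these cells in the Gimap6 values was not tested. The same holds for the fall of neutrophil, erythroid and myeloid markers and the higher CD8 and platelet markers after activation, whose part in the changes of Gimap7, Gimap8 and Gimap6 was not tested.

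Some members varied together from library to library within a state, and others did not. Among Gimap1, Gimap3, Gimap5 and Gimap7, Pearson's r of log2 CPM ran from 0.74 to 0.89 over 11 resting libraries (without the smallest) and from 0.82 to 0.96 over 12 activated ones. Gimap6 was apart from these 4 at rest, with r from -0.20 to 0.38, and close to them after activation, with r from 0.76 to 0.93. Gimap8 did the reverse, with r from 0.82 to 0.89 at rest and 0.26 to 0.50 after activation. Resting mtDNA NZB replicate 6, kept among the 11, was lowest there in Gimap1 (178 CPM), Gimap3 (247), Gimap5 (91.5), Gimap7 (98.8) and Gimap8 (52.6). In Gimap6 (1360 CPM) it was not the lowest, and r over the resting libraries without it was not computed. Within single groups the r of Gimap6 with the 4 ran from 0.89 to 0.97 in activated mtDNA NZB cells (n = 6), from 0.35 to 0.89 in activated mtDNA B6 cells (n = 6), from 0.39 to 0.75 in resting mtDNA B6 cells (n = 6) and from 0.07 to 0.42 in resting mtDNA NZB cells (n = 5). These are descriptions without a test, and members of a library share its scaling and its mix of cells.

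Gimap4 and Gimap9 stood outside this group. Their r with each other was 0.55 at rest and 0.79 after activation, and at rest Gimap9 was as close to Gimap6 (0.57). Set against all genes of at least 10 CPM, and with group means removed, the deviations of Gimap4 were most like those of Sf3b6, a splicing factor subunit (r = 0.95 over 23 libraries), and Tmsb4x, the actin-binding thymosin beta 4 (r = 0.91), genes chosen here after their values were seen. In activated mtDNA B6 replicate 3, for example, Gimap4 stood at 109, Sf3b6 at 46.9 and Tmsb4x at 3340 CPM, and in replicate 6 they stood at 15.1, 8.72 and 528 CPM. Libraries high in Gimap4 were thus also high in genes of unrelated roles, and the cause was not tested.

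**Figure D4:**
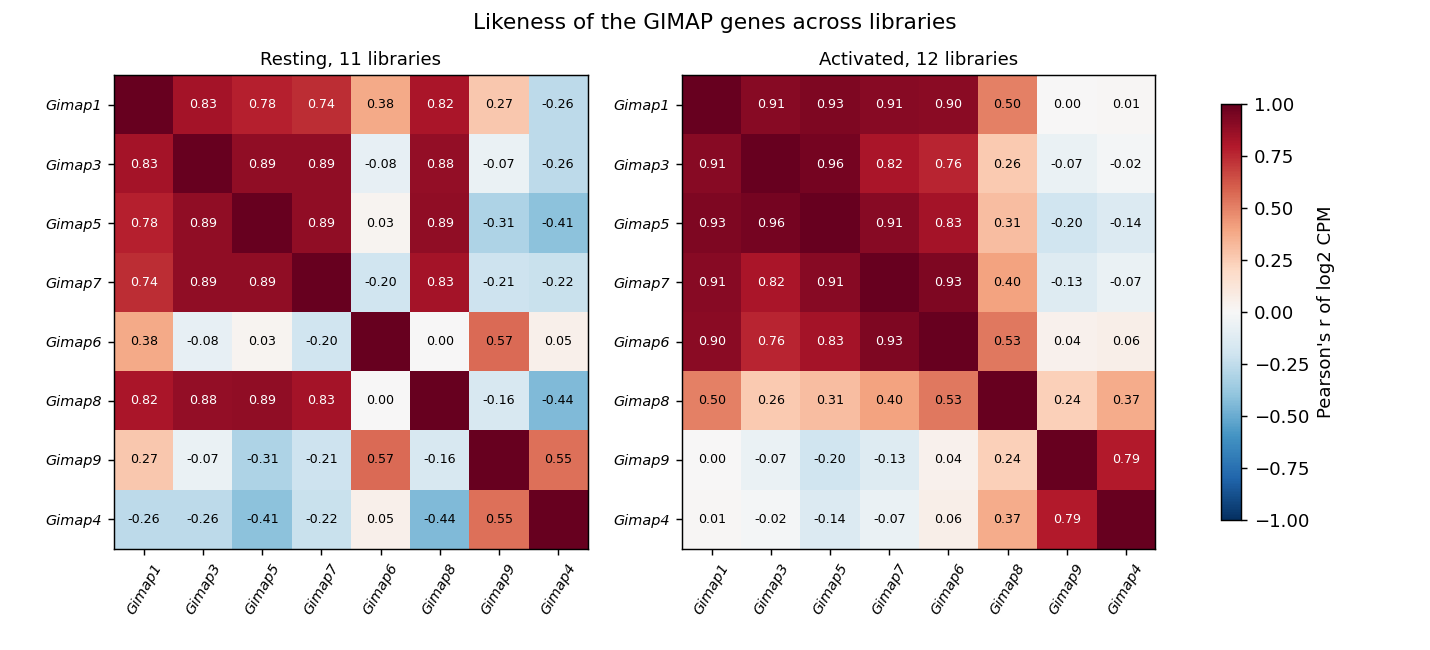
Pearson's r of log2 CPM between each pair of GIMAP genes over 11 resting libraries (left, without the smallest) and 12 activated libraries (right); red is positive and blue negative. Gimap1, Gimap3, Gimap5 and Gimap7 form a block in both states, joined by Gimap8 at rest and by Gimap6 after activation.

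The genes most like the family mean over 24 libraries, of 8170 considered, were Trim12a (r = 0.83), a member of the tripartite motif family, Cd7 (0.81), a surface protein of T cells, Tmem108 (0.81), a transmembrane protein, H2-Oa (0.80), which modulates peptide loading of class II molecules in B cells, and Bbs9 (0.80), a subunit of the BBSome. The likeness is r between a gene's log2 CPM and the mean of the members' standardized log2 CPM. Over 21 libraries the r of these 5 lay between 0.72 and 0.80. None was called on activation in either haplotype, with log2 changes from -0.24 to 0.14.

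The genes beside the cluster allowed the change to be followed along the chromosome. In the RefSeq table no other protein-coding gene lies between the members, and the readthrough gene Gm28053 of GENCODE runs over 3 of them. Of the 3 nearest on each side, Gm5111, Zfp775 and Gm7932 had too few counts to test, and Repin1 (log2 -0.36 in mtDNA B6 and 0.07 in mtDNA NZB cells) was not called. Tmem176b and Tmem176a, membrane proteins of dendritic and other immune cells, lie on the far side of Gimap3. They were called lower in both haplotypes, by log2 -0.85 and -0.90 and by -0.62 and -0.65, beside 24.5% and 28.4% of all genes. Over 21 libraries 2 neighbours were called lower in mtDNA B6 cells and only 1 in mtDNA NZB cells. Inside the cluster genes that fell and rose stood side by side. Gimap6 and Gimap7, whose starts lie 61.2 and 71.4 kb from that of Gimap8, changed by log2 -0.47 and 1.20 in mtDNA B6 cells.

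**Figure D5:**
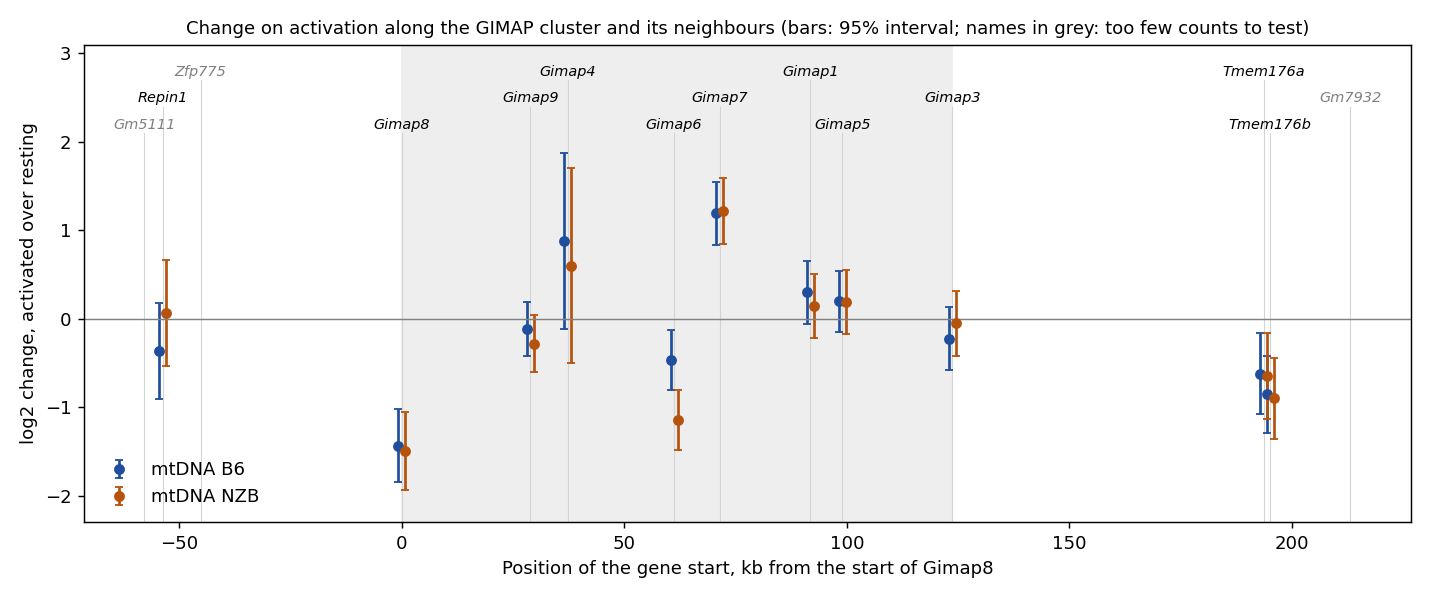
Log2 change on activation (95% interval) in mtDNA B6 (blue) and mtDNA NZB cells (orange) against the position of each gene's start, in kb from the start of Gimap8; the cluster is shaded and genes with too few counts to test are named in grey. Changes do not follow position: Gimap6 (-0.47 and -1.14) lies beside Gimap7 (1.20 and 1.22).

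Promoters were searched because Gimap3 and Gimap5 varied together (r = 0.96 over the 12 activated libraries). In the RefSeq promoter windows (GRCm38.p6, 250 bases before to 50 after the gene start) the ETS motif CAGGAAG, on either strand, was found in 3 of 8 members, Gimap3, Gimap5 and Gimap9, and in 13.3% of all 32851 windows. The matches of the pair are shown with the motif in capitals, at chr6:48770922-48770946 (minus strand) for Gimap3 and chr6:48746142-48746166 (plus strand) for Gimap5.
Gimap3 promoter: agggtggagCAGGAAGcagaacttt
Gimap5 promoter: ggctttccaCAGGAAGtggtcattg
The KLF motif CCACACC and the FOXO motif TGTTTAC were each found in 1 of 8 (Gimap3; 7.58% and 3.65% of all windows), the TCF motif CTTTGAA in 1 of 8 (Gimap7; 5.14%), and the RUNX motif TGTGGTT in 0 of 8 (5.27%). A match is a run of letters and no evidence of binding.

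Genes that work with GIMAP proteins were followed from a list of 12 (the Gabarap and Bcl2 families, Gsk3b and Ctnnb1). On activation 6 were called higher and 2 lower in mtDNA B6 cells, and 5 higher and 2 lower in mtDNA NZB cells. Of all genes tested, 22.4% and 25.2% were called higher, and 24.5% and 28.4% lower. Among the 4 most abundant, Gabarap, a carrier of autophagy cargo, had log2 changes of -0.22 and -0.22 and Mcl1, a survival protein, of -0.25 and -0.37, none called. Map1lc3b, which marks autophagosomes, fell by 0.52 and 0.88 on the log2 scale, and Bax, which opens the mitochondrial outer membrane in cell death, rose by 0.59 and 0.97. The list's median log2 change was 0.35 and -0.06. Between the haplotypes 1 of the 12, Bcl2l11, the death-promoting protein Bim, was called. It was called higher in resting mtDNA NZB cells (log2 1.09, adjusted p = 0.0426, edgeR), as were 1.9% of all genes. Over 21 libraries 0 of the 12 were called.

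Set beside T cell programs, Gimap8 and Gimap6 fell along with genes of resting cells. Of 17 such genes tested, 13 were called lower and 2 higher in mtDNA B6 cells, and 15 lower and 1 higher in mtDNA NZB cells. The list medians were -0.77 and -1.19. Of all genes tested, 24.5% and 28.4% were called lower, and 22.4% and 25.2% higher. Klf2, a transcription factor of quiescent T cells, changed by log2 -2.72 and -2.54, and Ccr7, the lymph node homing receptor, by -0.51 and -1.19. Tcf7, a factor of naive T cells, changed by -0.42 and -0.50, and Ets1, a factor that binds the ETS motif, by -0.22 (not called) and -0.47. Of 16 activation and growth genes, 12 were called higher and 1 lower in each haplotype, beside the same shares of all genes. Those called higher included Top2a, the replication topoisomerase (log2 2.63 and 3.31), and Tnfrsf18, a costimulatory receptor (1.79 and 1.75). The replication proteins Mcm5 (1.44 and 2.12) and Pcna (1.00 and 0.82) were called as well. The list medians were 1.61 and 1.60, and Gimap7, at 1.20 and 1.22, lay below both. Of these 4 genes only Pcna rose less than Gimap7.

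The interferon-inducible IRG and GBP proteins are other GTPases of immune defence. All 9 of their genes tested were called higher in both haplotypes, beside 22.4% (mtDNA B6) and 25.2% (mtDNA NZB) of all genes. Their median log2 changes were 2.00 and 1.98. Igtp rose by log2 2.30 and 2.31, Gbp2 by 3.60 and 3.90, Irgm1 by 1.73 and 1.89 and Gbp3 by 2.00 and 1.98. Of the GIMAP genes only Gimap7 was called in that direction. Of the 13 mtDNA-encoded protein genes 4 were tested, of which 0 were higher and 1 (mtDNA B6) or 3 (mtDNA NZB) lower on activation. The shares of all genes called lower were 24.5% and 28.4%. The mtDNA NZB count includes the smallest resting library, where mt-Nd1 and mt-Nd4 stood at 1080 and 1460 CPM against group medians of 6.94 and 10.9. Over 21 libraries 5 were tested, of which 4 (mtDNA B6) and 2 (mtDNA NZB) were lower, beside 26.6% and 28.7% of all genes. In the haplotype comparison at rest, 3 of the 17 resting T cell genes were called higher in mtDNA NZB cells. They were Ccr7 (log2 1.06, adjusted p = 0.0222, edgeR), S1pr1, the egress receptor (0.67, adjusted p = 0.0416, edgeR), and Satb1, a chromatin organizer (0.65, adjusted p = 0.0444, edgeR), beside 1.9% of all genes, and Gimap6 had a difference of 0.36 in the same direction.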

How the data were processed

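Bulk MARS-seq, a 3′ method with UMIs, was run on 24 libraries of splenic Tconv CD4+ cells. Per the methods the authors trimmed reads with cutadapt, dropped those under 30 bases, mapped the rest with STAR to 1000-base 3′ regions of GRCm39 (Ensembl 106) and counted genes with htseq-count; strand in counting is not given in the sources used here. The authors deposited these values as UMI counts corrected for saturation, which were used, and a second table of larger counts, read as counts before UMI removal. Input was 60 ng of RNA per the methods and 30 ng per the labels. 1 column matched no sample and was not used.

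Groups came from the labels. edgeR 4.0.16 (R 4.3.3) was fitted to all 24 libraries (TMM, filterByExpr, quasi-likelihood, Benjamini-Hochberg over 10566 genes), after a check on simulated data, and DESeq2 1.42.0 served as an alternative. Members and lists were chosen with earlier results of these data known. Genes named beside all 8 members were the 3 protein-coding neighbours on each side, the 5 genes most like the family mean (r, at least 10 CPM in a group) and up to 4 abundant genes of each list, plus list genes called between haplotypes. Lists covered partners, resting genes, activation genes, IRG and GBP genes, mtDNA genes and cell type markers, of which 1 is not reported here. Gene positions are from GENCODE (GRCm39) and promoters from RefSeq. Alternatives were the tool, scaling, filters, a fold cut-off, the second table, 12 or 21 libraries, a replicate block, library sets by reads per UMI, and leaving out each library. No 2 libraries of a group agreed within sampling noise (lowest chi-square over its degrees of freedom 2.97), and all were counted as replicates. Counting error limits the smallest library most.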

Additional observations from a re-analysis of the deposited data

Results flagged for a closer look

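In each group of 6 libraries the highest or lowest value of a member was compared with the group's range, and 5 of 32 member and group combinations held a value set off beyond Dixon's 95% limit; chance alone gives about 1 in 20. Of the 5, 3 concerned Gimap4, which stood at 109 CPM in activated mtDNA B6 replicate 3 (next 48.1), at 102 in resting mtDNA NZB replicate 2 (next 34.5) and at 79.7 in activated mtDNA NZB replicate 4 (next 31.6). The value in resting replicate 2 rests on 6 counts. Gimap1 was low at 178 CPM in resting mtDNA NZB replicate 6 (next 284), the library with the high neutrophil sum, and Gimap3 was high at 459 CPM in activated mtDNA B6 replicate 6 (next 378).

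Over 21 libraries the response of Gimap6 to activation differed between the haplotypes by log2 -0.93 (adjusted p = 0.0442, edgeR), and over 24 libraries by log2 -0.67 (adjusted p = 0.23). The gene was chosen with these counts known, and the call turned on the libraries and the terms used, so it is a description.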

How the results depend on the processing

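Under every alternative run, Gimap7 stayed called higher and Gimap8 called lower on activation in both haplotypes, and no called value changed sign. With a log2 cut-off of 1 the number called lower in mtDNA B6 cells was 1 in place of 2, and over fits that each left out 1 library it ran from 1 to 2, with Gimap6 lost without activated replicate 5. For the difference of the responses 1 member, Gimap6, was called lower over 21 libraries by edgeR, in place of 0. DESeq2 called it over the same 21 libraries (log2 -0.92, adjusted p = 0.0102) but not over 24 (log2 -0.67, adjusted p = 0.398). Each library dropped for these 21-library fits widens the difference when removed alone, so the 2 calls rest on the same favourable choice of libraries. The share of all genes called by DESeq2 over 21 libraries is not given here. Over 24 libraries the Gimap6 difference ran from -0.81 (without activated mtDNA NZB replicate 6) to -0.58 when each library was left out. With the library set as a term it was -0.42 (adjusted p = 0.521, edgeR), and -0.73 over 21 libraries (adjusted p = 0.166). Counted by member and fit together, 13 and 1 values of uncalled members crossed 0 for activation in mtDNA NZB and mtDNA B6 cells. The counts were 18 and 17 for the haplotypes at rest and activated, and 47 for the difference of the responses.

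Numbers in the sample descriptions are shared by some resting and activated libraries, but nothing says what they mark, and deviations of the 9 pairs correlated at -0.22 to 0.34, with 3 resting libraries closest to the activated library of their own number. With that number as a replicate block the Gimap6 difference was -0.56 (adjusted p = 0.854, edgeR), and -0.77 over 21 libraries (adjusted p = 0.15), where members called higher on activation were 2 in each haplotype in place of 1 (Gimap1 in mtDNA B6, Gimap4 in mtDNA NZB cells). With the title's replicate number as a block it was -0.69 (adjusted p = 0.291). Depth limits most members in the smallest library, where Gimap9 held 2 counts, Gimap8 5 and Gimap4 6. In the other libraries Gimap4 had the fewest counts, 22 in activated mtDNA NZB replicate 1.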
